A study of Sus scrofa with 32 samples.

Results

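Insulin-like growth factor 1 (IGF1) and the proteins that bind it were followed across 2 arteries and the fat around one of them in lean and obese juvenile pigs. The members are all probe sets whose deposited gene symbol is IGF1 or IGFBP followed by 1 digit, which gave 15 probe sets of 7 genes (IGF1, IGFBP1, IGFBP2, IGFBP3, IGFBP5, IGFBP6 and IGFBP7) among 14327 probe sets with 8390 symbols. A probe set is a group of short probes on the array that together give 1 expression value, and a gene can have several. IGFBP4 was not analysed here.

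Ossabaw miniature swine, a pig strain that becomes obese on rich food, were assigned at random at 5 to 6 weeks of age to 1 of 2 diets for 16 weeks and studied at 22 weeks. Lean pigs (6 animals) ate a low fat diet from a commercial supplier, and obese pigs (5 animals) ate a diet high in fat, high fructose corn syrup and cholesterol. RNA came from the LAD (the left anterior descending branch of the coronary arteries), from PVAT (perivascular fat that lay against the LAD) and from the TA (thoracic aorta, descending segment). Each tissue of each animal was put on 1 Affymetrix porcine array, except that pig 63, a lean pig, had no TA array. The 6 groups therefore held 6 lean and 5 obese LAD arrays, 6 and 5 PVAT arrays, and 5 and 5 TA arrays, and replicates are separate pigs. The arteries were whole vessel wall, cleaned of surrounding fat and of surplus adventitia, and their RNA was extracted with the RNeasy Mini kit while the fat went through the RNeasy Lipid Tissue kit.

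IGF1 is a growth hormone-induced peptide that acts through the receptor tyrosine kinase IGF1R on growth, survival and migration of vascular smooth muscle and on adipocyte differentiation. IGF binding proteins hold IGFs in the circulation and in the matrix around cells, and depending on the protein and on its proteolysis they limit or prolong IGF action. In fat and in the vessel wall IGF1 is made locally as well as delivered from the liver.

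Values are log2 expression as deposited, so a difference of 1 is a doubling. Probe sets in the lowest 30% by mean level were not tested, and 12 of the 15 members were among the 10029 probe sets tested. IGF1 probe sets 5 and 6 and IGFBP1 were not, and their differences come from a fit of all deposited probe sets. Probe sets of 1 gene are numbered by falling mean level, 6 for IGF1, 2 for IGFBP5 and 3 for IGFBP7, and the other genes have 1 each. The platform annotation gives the same symbol for the probe sets of IGFBP1, IGFBP2 and IGFBP6, for 1 of 2 of IGFBP5 and for 3 of 6 of IGF1 (probe sets 4, 5 and 6). It gives none for IGFBP3 and the remaining IGF1 and IGFBP5 probe sets, and it names all 3 IGFBP7 probe sets POLR2B.

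Among TA arrays, that of obese pig 57 was unlike the rest: 824 of its probe sets lay over 2 log2 units from the others, against at most 25 on any other TA array. Where a difference from TA over both diets is printed for a tested member or a named pathway gene, it is therefore also given without this array. That choice was made after seeing the data. As a check of the tissue labels, the mean of 6 of 8 smooth muscle markers was 13.43 ± 0.14 (SD, n = 6) in lean LAD, 13.42 ± 0.07 (n = 5) in lean TA and 11.83 ± 0.34 (n = 6) in lean PVAT. The mean of the 3 of 7 adipocyte markers that were measured (ADIPOQ, FABP4 and LIPE) was 10.96 ± 0.49 in lean PVAT, 9.05 ± 0.25 in lean LAD and 9.10 ± 0.16 in lean TA. In obese pigs it was 10.91 ± 1.09 in PVAT, 9.03 ± 0.17 in LAD and 8.93 ± 0.40 in TA (n = 5 each). The obese PVAT arrays of pigs 81 and 85 read only 9.79 and 9.69, near the highest artery array at 9.51. Cardiomyocyte markers (13 of 15 measured) had means from 7.11 to 12.50 in LAD, from 6.23 to 12.68 in PVAT and from 5.76 to 6.53 in TA. All LAD arrays were thus above all TA arrays for these heart muscle genes. The tissues are mixtures of cells, and in such samples fewer cells of a type and less RNA per cell cannot be told apart. The RNA kit and the tissue cannot be told apart in comparisons of PVAT with an artery.

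**Figure D1:**
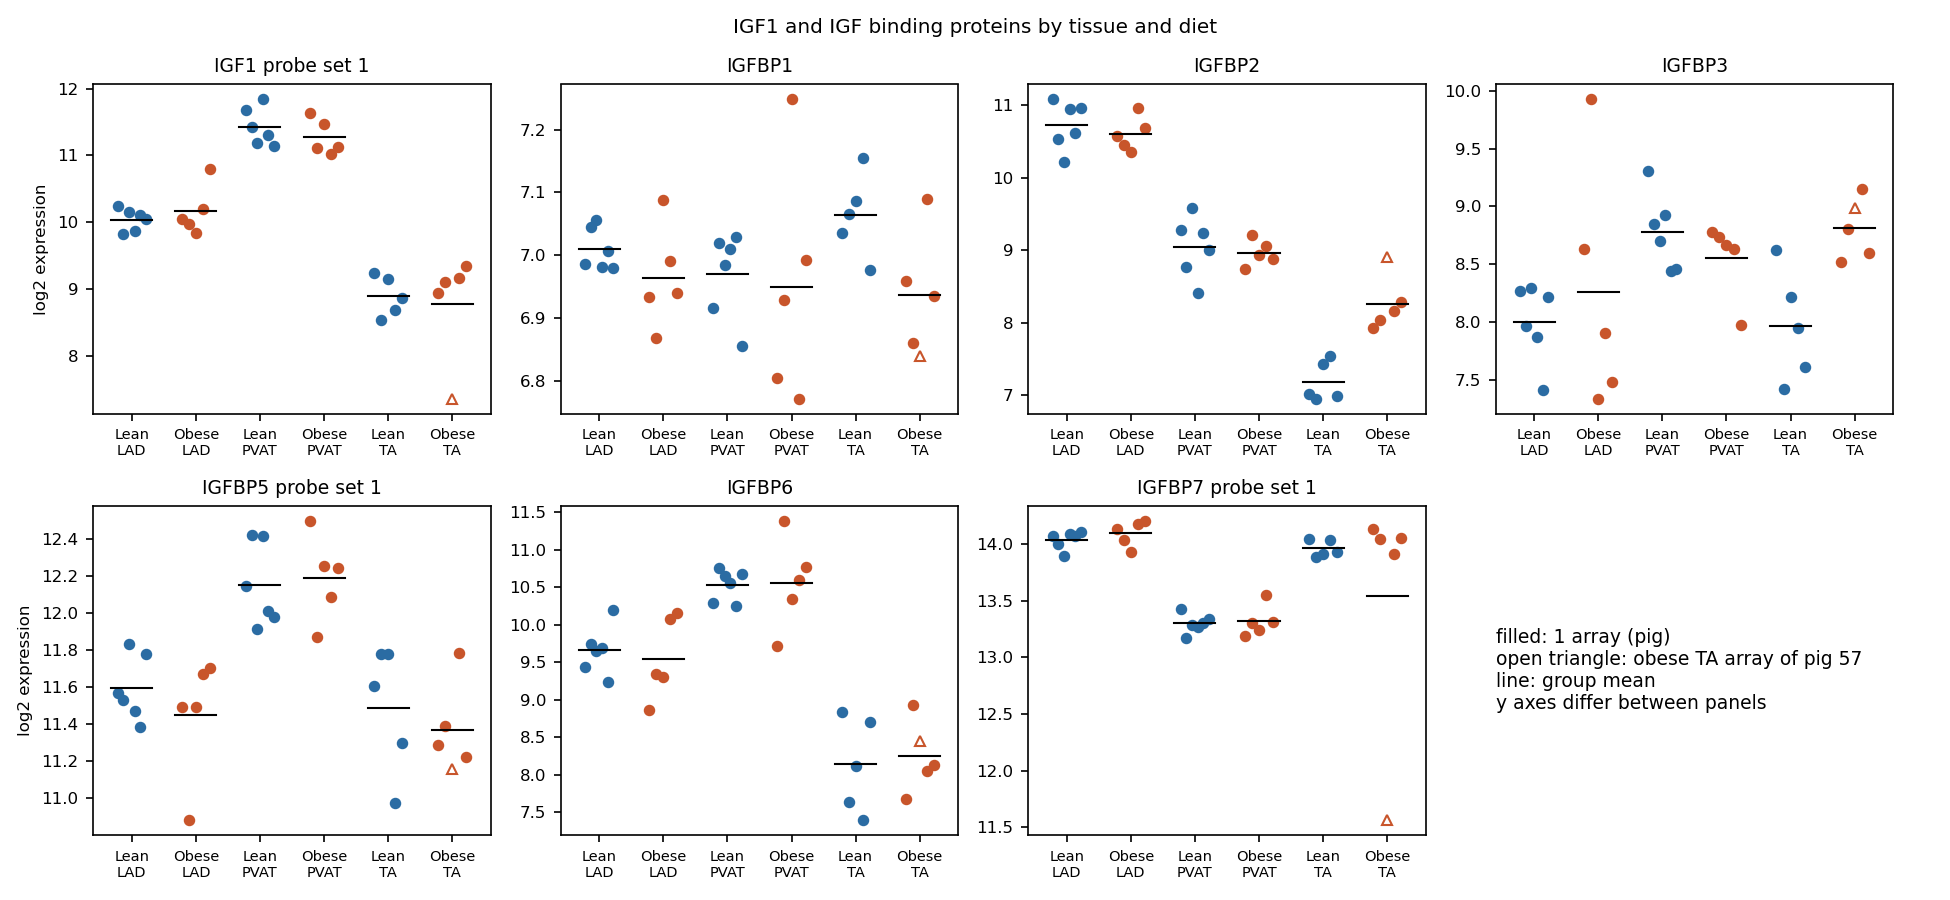
Log2 expression of each member gene in every array, with the probe set of highest mean where a gene has several (each point is 1 pig, the open triangle the obese TA array of pig 57, the line the group mean, and y axes differ). IGF1 and IGFBP6 step down from PVAT to LAD to TA, IGFBP2 is highest in LAD, and IGFBP7 is lower in PVAT than in LAD.

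The tissue comparisons ask how the coronary artery, its fat and the aorta differ, over both diets. IGF1 mRNA was highest in PVAT, intermediate in LAD and lowest in TA, and IGFBP6 had the same order. IGFBP2 was highest in LAD, IGFBP5 was higher in PVAT than in either artery, and IGFBP7 was lower in PVAT than in either artery. Of the 12 tested members, 6 were higher and 0 lower in LAD than in TA, where 24.5% of all tested probe sets differed (limma, Benjamini-Hochberg adjusted p under 0.05), 14.4% higher and 10.1% lower. Between PVAT and LAD 8 were higher in PVAT and 4 lower, against a background of 56.6%, of which 24.2% were higher and 32.4% lower. Between PVAT and TA 8 were higher in PVAT and 3 lower, against 59.7%, of which 26.9% were higher and 32.9% lower. The members' median log2 differences were 0.35, 0.70 and 1.11 in that order, and the medians over all tested probe sets were 0.01, -0.04 and -0.04. Counts and medians are over probe sets, and 4 of the 12 are of IGF1, 3 of IGFBP7 and 2 of IGFBP5. These genes therefore weigh more than once. The 6 higher in LAD than in TA were the 4 of IGF1, IGFBP2 and IGFBP6. The values of 4 of the 12 did not overlap between LAD and TA (background 3.85%), those of 9 did not overlap between PVAT and LAD (14.9%), and those of 6 did not overlap between PVAT and TA (9.52%).

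**Figure D2:**
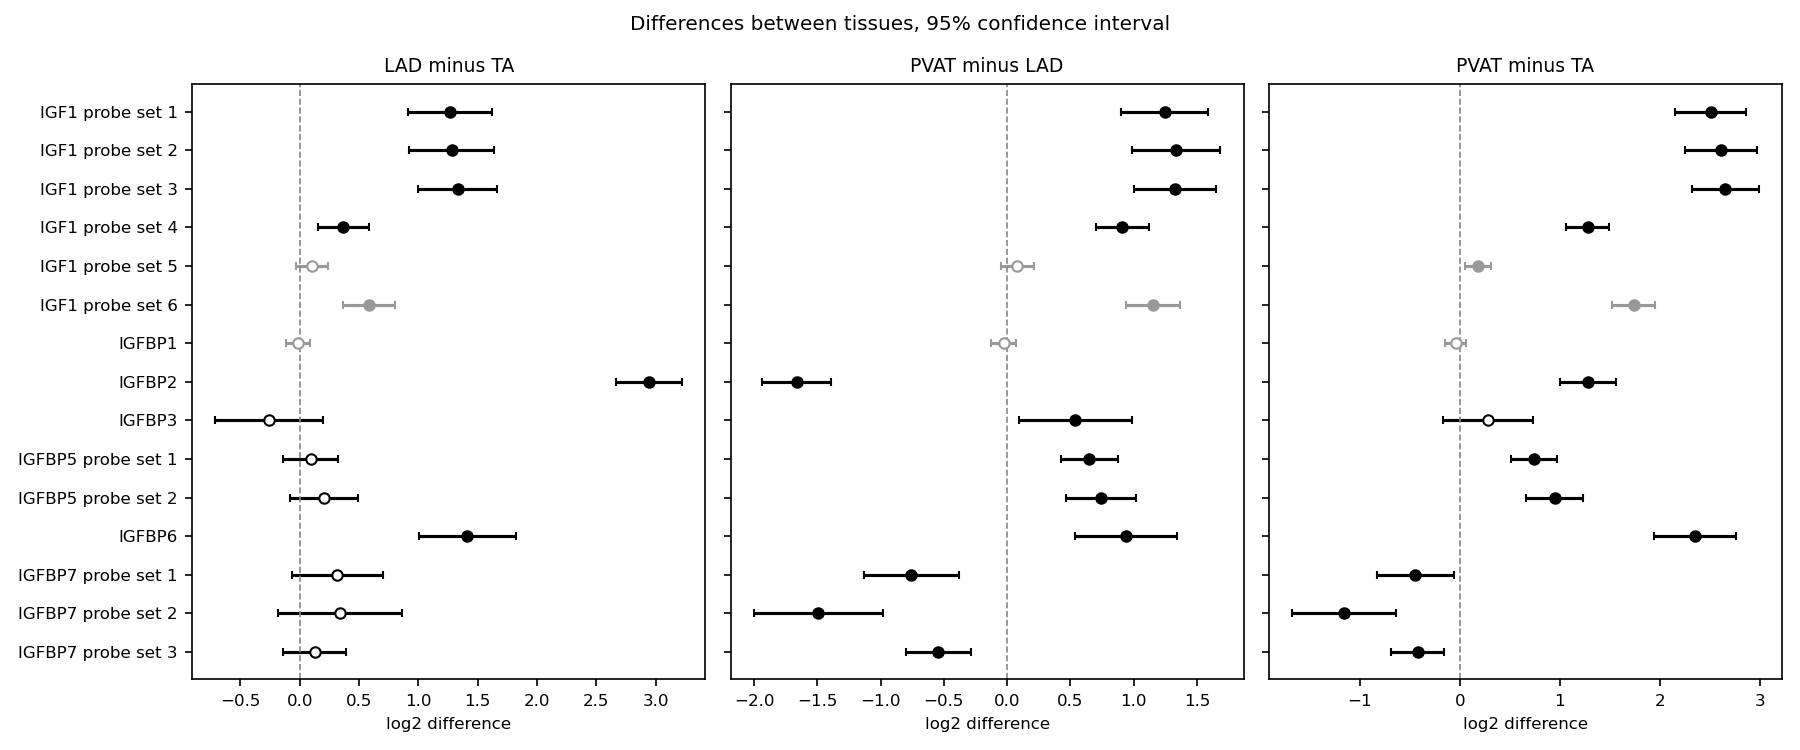
Log2 differences between tissues for the 15 probe sets, over both diets, with 95% confidence intervals (filled points passed an adjusted p under 0.05, open points did not, and grey marks the 3 probe sets outside the tested set). In the right panel all 4 tested IGF1 probe sets lie above 1 and the 3 IGFBP7 probe sets below 0.

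IGF1, the ligand, was 5.69-fold higher in PVAT than in TA on its probe set 1. In PVAT the lean pigs ran from 11.13 to 11.84 with a median of 11.37, and the obese pigs 51, 55, 57, 81 and 85 had 11.63, 11.11, 11.48, 11.01 and 11.13. In LAD the lean pigs ran from 9.82 to 10.24 with a median of 10.08, and the same obese pigs had 10.05, 9.98, 9.84, 10.19 and 10.80. In TA the lean pigs 48, 56, 73, 80 and 86 had 9.24, 8.54, 9.15, 8.68 and 8.87 and the obese pigs 8.94, 9.10, 7.36, 9.16 and 9.35. Every PVAT array therefore lay above every LAD array and every LAD array above every TA array, and the array of pig 57 was the lowest in TA. The difference was 1.27 (SE 0.17, 2.40-fold, limma adjusted p = 1.641e-06) between LAD and TA. It was 1.24 (SE 0.17, 2.37-fold, adjusted p = 5.191e-07) between PVAT and LAD, and 2.51 (SE 0.17, adjusted p = 9.885e-13) between PVAT and TA. Within a pig, PVAT exceeded LAD by 0.32 to 1.97 in 11 of 11 pigs and LAD exceeded TA by 0.71 to 2.48 in 10 of 10. Without the TA array of pig 57 the differences of LAD and PVAT from TA were 1.09 and 2.33.

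The other IGF1 probe sets followed this order to different degrees. Probe sets 2 and 3 differed by 1.28 (SE 0.17) and 1.33 (SE 0.16) between LAD and TA and by 2.61 (SE 0.17) and 2.66 (SE 0.16) between PVAT and TA, close to probe set 1. Without the TA array of pig 57 these were 1.13 and 1.21, and 2.46 and 2.53. Probe set 4 gave 0.37 (SE 0.10, limma adjusted p = 0.009185) and 1.28 (SE 0.10, adjusted p = 2.904e-11), and its LAD and TA values overlapped. Without that array it gave 0.33 and 1.24, both still passing. Probe set 6, outside the tested set, gave 0.58 (SE 0.11) and 1.74 (SE 0.11), with TA means of 6.05 and 6.12, under the log2 of 100 that the table's own filter used, so no fold is given. Probe set 5 stayed between 6.58 and 7.24 on all 32 arrays and differed by 0.10 (SE 0.06) between LAD and TA and by 0.18 (SE 0.06) between PVAT and TA. Across the 32 arrays, probe set 1 had a Pearson r of 0.98 with probe set 2 and 0.99 with probe set 3, and 0.45 with probe set 5, which is given as a description since the arrays share tissues and pigs. After the group means were removed and the pig 57 TA array left out, these r were 0.74, 0.85 and -0.33.

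IGFBP2, which binds both IGFs and prefers IGF2, had the widest contrast between the arteries among the members. In LAD the lean pigs ran from 10.22 to 11.08 with a median of 10.78, and the obese pigs 51, 55, 57, 81 and 85 had 10.58, 10.46, 10.36, 10.96 and 10.69. In PVAT the lean pigs ran from 8.41 to 9.58 with a median of 9.12, and the obese pigs had 8.74, 9.22, 8.93, 9.05 and 8.88. In TA the lean pigs 48, 56, 73, 80 and 86 had 7.02, 6.95, 7.44, 7.55 and 6.99 and the obese pigs 7.92, 8.04, 8.91, 8.16 and 8.29. All LAD arrays lay above all PVAT and TA arrays, and every PVAT array lay above every TA array except that of pig 57. The difference was 2.94 (SE 0.14, 7.69-fold, limma adjusted p = 8.816e-16) between LAD and TA. It was -1.66 (SE 0.13, adjusted p = 3.764e-11) between PVAT and LAD, that is 3.17-fold lower in the fat, and lower in 11 of 11 pigs. Between PVAT and TA it was 1.28 (SE 0.14, 2.43-fold, adjusted p = 5.36e-09), higher in 10 of 10 pigs, with the smallest difference, 0.02, in pig 57. Without the TA array of that pig LAD exceeded TA by 3.02 (SE 0.13) and PVAT exceeded TA by 1.36 (SE 0.13). In lean pigs LAD exceeded TA by 3.54 (SE 0.19) and in obese pigs by 2.35 (SE 0.20), or 2.51 (SE 0.19) without that array.

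IGFBP6, whose preferred ligand is IGF2, followed the order PVAT, LAD, TA. In PVAT the lean pigs ran from 10.25 to 10.75 with a median of 10.60, and the obese pigs 51, 55, 57, 81 and 85 had 9.72, 11.38, 10.35, 10.60 and 10.76. In LAD the lean pigs ran from 9.24 to 10.20 with a median of 9.67, and the obese pigs had 8.87, 9.34, 9.30, 10.08 and 10.16. In TA the lean pigs 48, 56, 73, 80 and 86 had 8.84, 7.64, 8.11, 7.40 and 8.70 and the obese pigs 7.68, 8.93, 8.45, 8.05 and 8.12. PVAT and TA did not overlap, and 10 of 11 LAD arrays lay above the highest TA array. The difference was 2.35 (SE 0.20, 5.11-fold, limma adjusted p = 7.672e-11) between PVAT and TA. It was 1.41 (SE 0.20, 2.66-fold, adjusted p = 3.259e-06) between LAD and TA and 0.94 (SE 0.20, 1.92-fold, adjusted p = 0.0001984) between PVAT and LAD. The differences from TA were 2.38 for PVAT and 1.44 for LAD without the array of pig 57. A probe set that the platform annotation names IGFBP6 and the deposited symbols leave unnamed differed by 1.68 (SE 0.14), 1.16 (SE 0.14) and 0.53 (SE 0.14) in the same comparisons. Schwann cell markers (6 of 6 measured) moved with this order, with lean means of 10.52 in PVAT, 9.83 in LAD and 7.98 in TA, as did fibroblast markers (7 of 8 measured) at 12.60, 12.39 and 12.03. Endothelial markers (7 of 9) had the same order at 9.72, 8.58 and 7.65, and cardiomyocyte markers at 10.77, 9.27 and 6.33. Mesothelial markers (3 of 8, all keratins: KRT8, KRT18 and KRT19) had it too, at 8.38, 7.08 and 6.18. So did lymphatic endothelial markers (4 of 5) at 9.34, 6.95 and 6.88, and CD3D, the only lymphocyte marker measured, at 6.75, 6.44 and 6.42. Macrophage markers (7 of 10), at 10.40, 9.18 and 9.60, and adipocyte markers, at 10.96, 9.05 and 9.10, were highest in PVAT but not lower in TA than in LAD. Smooth muscle markers were lowest in PVAT. With the cardiomyocyte mean as a covariate PVAT exceeded TA by 2.72 for IGF1 probe set 1 and by 2.46 for IGFBP6, and both still passed. That mean ran only from 5.76 to 6.53 in TA and was higher on all LAD arrays. Heart muscle content and tissue therefore cannot be told apart between LAD and TA in this fit. Between PVAT and TA the mean overlapped only through the PVAT array of lean pig 73, at 6.23. That array read 11.84 for IGF1 probe set 1 and 10.56 for IGFBP6. The part of any cell type in the IGF1 and IGFBP6 differences was not tested.

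IGFBP5, which binds IGFs and extracellular matrix, was higher in PVAT than in both arteries. Its probe set 1 ran from 11.92 to 12.42 in lean PVAT with a median of 12.08 and was 12.50, 11.87, 12.25, 12.09 and 12.24 in obese pigs 51, 55, 57, 81 and 85. It ran from 11.39 to 11.83 in lean LAD with a median of 11.55, with 11.49, 10.88, 11.49, 11.67 and 11.71 in the obese pigs. In TA it was 11.60, 11.78, 11.78, 10.98 and 11.30 in lean pigs 48, 56, 73, 80 and 86 and 11.29, 11.39, 11.16, 11.79 and 11.23 in the obese pigs. Every PVAT array lay above every artery array, while LAD and TA overlapped. PVAT exceeded LAD by 0.65 (SE 0.11, limma adjusted p = 1.546e-05) and TA by 0.74 (SE 0.11, adjusted p = 2.419e-06). The latter was 0.71 without the TA array of pig 57. Probe set 2 gave 0.74 (SE 0.14) and 0.95 (SE 0.14), the second also 0.95 without that array, and both probe sets passed in all alternatives run. Between LAD and TA the probe sets differed by 0.09 (95% confidence interval -0.14 to 0.32) and 0.21 (-0.08 to 0.49) and did not pass. These differences were 0.07 and 0.21 without the TA array of pig 57, neither passing.

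IGFBP7, a secreted protein of low IGF affinity that is abundant in vessel walls, was lower in PVAT than in LAD. Probe set 1 ran from 13.90 to 14.11 in lean LAD with a median of 14.07 and from 13.17 to 13.43 in lean PVAT with a median of 13.30. In obese pigs 51, 55, 57, 81 and 85 it was 14.13, 14.04, 13.93, 14.18 and 14.21 in LAD and 13.19, 13.30, 13.24, 13.55 and 13.31 in PVAT. In TA it was 14.05, 13.89, 13.92, 14.04 and 13.93 in lean pigs 48, 56, 73, 80 and 86 and 14.14, 14.05, 11.56, 13.91 and 14.06 in the obese pigs. Arteries and fat did not overlap except through the TA array of pig 57, which read below all PVAT arrays. The 3 probe sets differed between PVAT and LAD by -0.76 (SE 0.18), -1.49 (SE 0.25) and -0.55 (SE 0.13), with limma adjusted p of 0.0009229, 1.133e-05 and 0.0005645, and each was lower in PVAT in 11 of 11 pigs.

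Against TA the size of the IGFBP7 differences depended on how the array of pig 57 was treated, and the call of probe set 1 was not stable. Over all arrays PVAT differed from TA by -0.44 (SE 0.19, limma adjusted p = 0.04245), -1.16 (SE 0.25, adjusted p = 0.0003102) and -0.42 (SE 0.13, adjusted p = 0.006178) on the 3 probe sets. The call of probe set 1 was lost in 12 of 23 alternatives, namely the cardiomyocyte mean as a covariate (adjusted p = 0.2895), the pig as a fixed block (0.1135) and the removal of any 1 pig other than pig 57 (0.05748 to 0.1362). Probe set 2 passed in all 23 alternatives. Probe set 3 passed in 21 of 22, and lost its call only with the cardiomyocyte mean as a covariate, at -0.46 (adjusted p = 0.1035). Without the array of pig 57 the differences were -0.69 (SE 0.05), -1.49 (SE 0.08) and -0.58 (SE 0.05), and LAD and TA differed by 0.07 (SE 0.05), 0.01 (SE 0.08) and -0.03 (SE 0.05). Smooth muscle markers were also lower in the fat and on this array, where their mean was 11.96 against 13.45 at most in obese TA. On this array the fibroblast (10.79), Schwann cell (6.58), adipocyte (8.24) and cardiomyocyte (5.76) means were also the lowest in TA. The mesothelial mean (10.17) and CD3D (7.20) were the highest. After group means were removed, smooth muscle r with the 3 probe sets was 0.77, 0.79 and 0.69, and 0.27, 0.40 and -0.06 without this array. For mesothelial markers it was -0.85, -0.87 and -0.77, and -0.39, -0.49 and -0.02 without it. The part of any cell type was not tested. The platform annotation's name for these probe sets, POLR2B, belongs to the gene next to IGFBP7 in the pig annotation. The probe set that both sources name POLR2B differed by -0.05 (SE 0.04) between PVAT and LAD and by 0.00 (SE 0.04) between PVAT and TA, unlike the 3 IGFBP7 probe sets.

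IGFBP3, the main IGF carrier of the circulation, had tissue ranges that overlapped. In LAD the lean pigs ran from 7.41 to 8.29 with a median of 8.09, and the obese pigs 51, 55, 57, 81 and 85 had 8.63, 9.93, 7.34, 7.91 and 7.48. In PVAT the lean pigs ran from 8.44 to 9.30 with a median of 8.77, and the obese pigs had 8.78, 8.74, 8.67, 8.63 and 7.97. In TA the lean pigs 48, 56, 73, 80 and 86 had 8.62, 7.42, 8.21, 7.95 and 7.61 and the obese pigs 8.52, 8.80, 8.99, 9.15 and 8.59. The tissues overlapped in each comparison, and the LAD array of obese pig 55 was the highest of all 32. The 28S/18S ratio was 0.69 on that array and 0.63 on the LAD array of pig 57, which was the lowest of all 32. PVAT exceeded LAD by 0.54 (SE 0.22, limma adjusted p = 0.03537), higher in 10 of 11 pigs. That call was lost in 9 of 22 alternatives, namely with the 28S/18S ratio as a covariate (adjusted p = 0.07246) and without any 1 of pigs 48, 51, 56, 57, 73, 80, 81 and 85 (adjusted p from 0.05077 to 0.114). With array weights the difference was 0.82. LAD and TA differed by -0.26 (95% confidence interval -0.71 to 0.20) over both diets without passing, and with array weights LAD was lower by 0.46 (adjusted p = 0.0369). PVAT and TA differed by 0.28 (-0.17 to 0.74) without passing, and with the pig as a fixed block by 0.29 (adjusted p = 0.04902). That mean joined 0.82 (SE 0.31, limma adjusted p = 0.02803) in lean pigs and -0.25 (SE 0.32, adjusted p = 0.5586) in obese pigs, and the test between the diets did not pass (adjusted p = 0.854). Without the TA array of pig 57 LAD and PVAT differed from TA by -0.24 and 0.30, neither passing.

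IGFBP1, a binding protein made mainly by liver under insulin control, had low and even values, and whether it was detected is not known. They ran from 6.77 to 7.25 over all arrays, and the group means from 6.94 to 7.06. The differences between tissues were -0.01 (SE 0.05) for LAD and TA, -0.03 (SE 0.05) for PVAT and LAD and -0.04 (SE 0.05) for PVAT and TA, and none passed among all deposited probe sets. Of neighbouring gene pairs in the pig annotation, IGFBP3 and IGFBP1 lie side by side, as do IGFBP2 and IGFBP5. IGFBP2 was lower and its neighbour IGFBP5 higher in PVAT than in LAD.

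The diet comparisons ask how obese and lean pigs differed in each tissue, and the diet and the obesity cannot be told apart. None of the 12 tested members passed for diet in LAD, PVAT or TA (limma, adjusted p under 0.05), where 0.0399%, 0% and 0% of all tested probe sets passed. At an unadjusted p under 0.05 there were 0 members in LAD, 0 in PVAT and 2 in TA (IGFBP2 and IGFBP3), among 1720, 221 and 720 probe sets in all. The obese and lean values of 0 members in LAD (background 2.73%), 0 in PVAT (0.209%) and 1 in TA (2.99%) did not overlap. The members' median differences between obese and lean were 0.03, -0.08 and -0.09, beside -0.06, 0.00 and -0.03 over all tested probe sets.

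**Figure D3:**
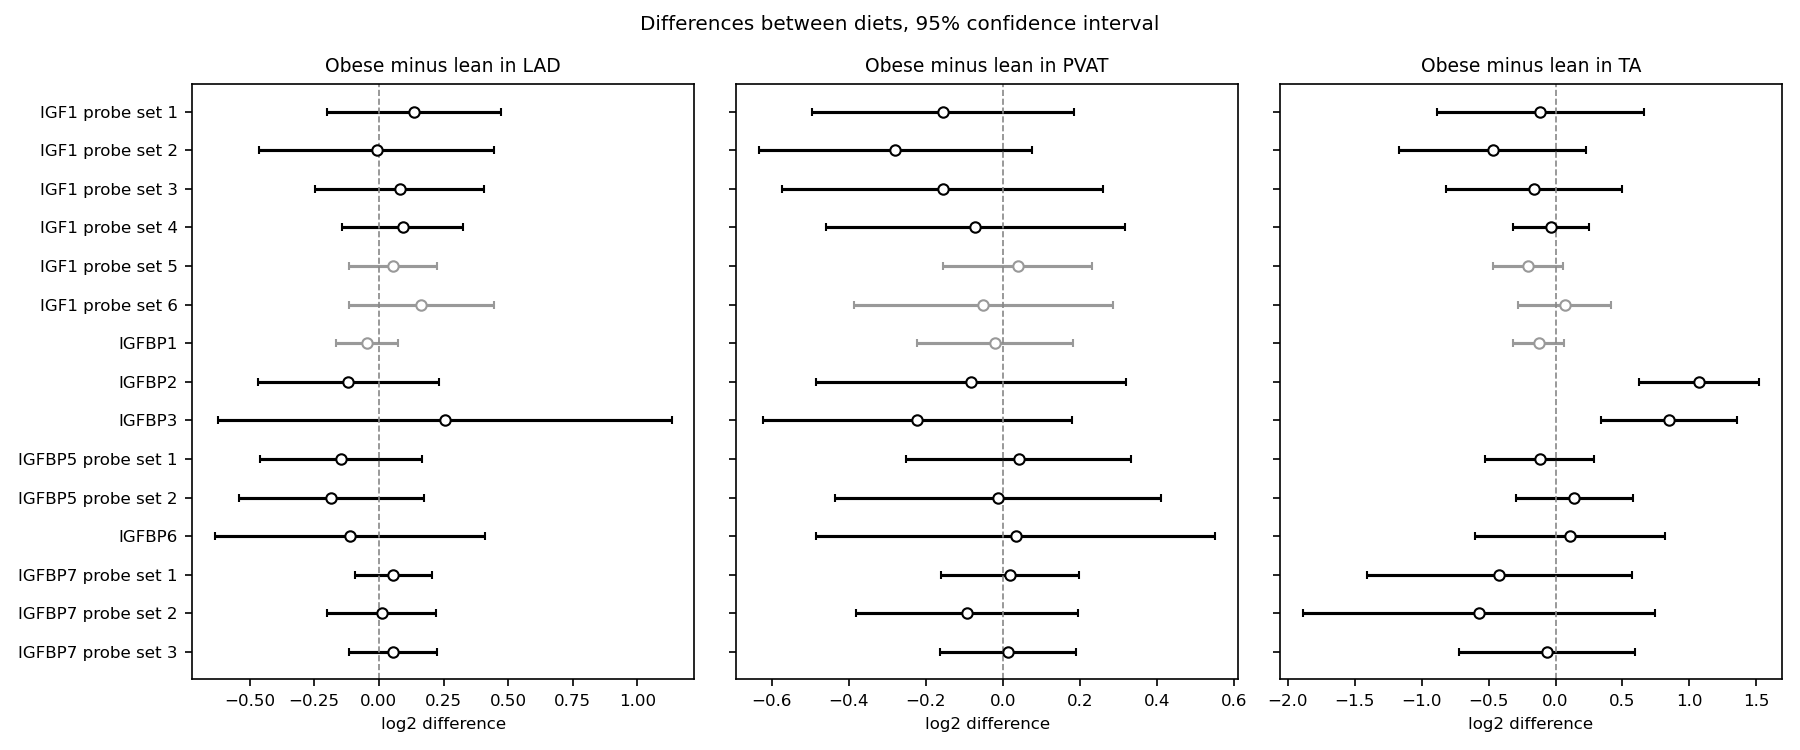
Log2 differences between obese and lean pigs in each tissue for the 15 probe sets, with 95% confidence intervals (x axes differ, and grey marks the 3 probe sets outside the tested set). All points are open because none passed an adjusted p under 0.05, and the IGFBP2 and IGFBP3 intervals in TA lie above 0.

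In TA, IGFBP2 was 2.11-fold higher in obese than in lean pigs without passing over all genes. The lean mean was 7.19 ± 0.28 (SD, n = 5) and the obese mean 8.26 ± 0.39 (n = 5), with each of the 5 obese arrays above the highest lean array, a separation found upward for 1.40% of tested probe sets. The difference was 1.07 (SE 0.20, 95% confidence interval 0.63 to 1.52, limma adjusted p = 0.255). Within the 3 dates of sacrifice it was 1.52, 0.90 and 0.90, with 1 to 3 lean and 1 or 2 obese pigs on each. It passed in 5 of 21 alternatives. These were without pig 57 (0.91, SE 0.15, adjusted p = 0.03968, where 0.289% of probe sets passed), array weights (adjusted p = 0.01109) and the 28S/18S ratio as a covariate (0.02006). The others were all 6 groups in 1 fit, with the pig as a random block (0.009907) and without it (0.01023, where 0.598% passed). Over all 21 alternatives the difference ran from 0.85 to 1.16 and its adjusted p from 0.009907 to 0.609.

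Other measures differed between the same arrays. The mean of 7 of 9 endothelial markers ran from 7.33 to 7.89 in lean and from 7.94 to 9.12 in obese TA, also without overlap. After group means were removed, this mean had an r of -0.40 with IGFBP2 over the 32 arrays, and -0.28 without the TA array of pig 57. The 28S/18S ratio of the RNA, a measure of its integrity, was 0.61 and 0.57 in obese TA of pigs 81 and 85, 2.14 in that of pig 57, and between 1.17 and 1.54 in the lean arrays. IGFBP2 was 8.16 and 8.29 in pigs 81 and 85 and 8.91 in pig 57. It was 7.92 and 8.04 in pigs 51 and 55, whose ratios were 1.28 and 1.29. Apart from the fit above with the ratio as a covariate, the part of RNA integrity in this difference was not tested. Neither was the part of endothelial content.

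In the other tissues the obese minus lean difference was -0.12 (95% confidence interval -0.47 to 0.23) in LAD and -0.08 (-0.49 to 0.32) in PVAT, and the groups overlapped in both. The test of the difference between tissues gave -1.19 (SE 0.27, limma adjusted p = 0.998) for LAD against TA and -1.16 (SE 0.27, adjusted p = 0.608) for PVAT against TA. Neither passed over all genes, and 0% of tested probe sets passed in any of the 3 such comparisons, although 227, 292 and 493 did at an unadjusted p under 0.05 for LAD against TA, PVAT against LAD and PVAT against TA. Without the array of pig 57 the values were -1.03 (SE 0.26) and -0.996 (SE 0.26).

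**Figure D4:**
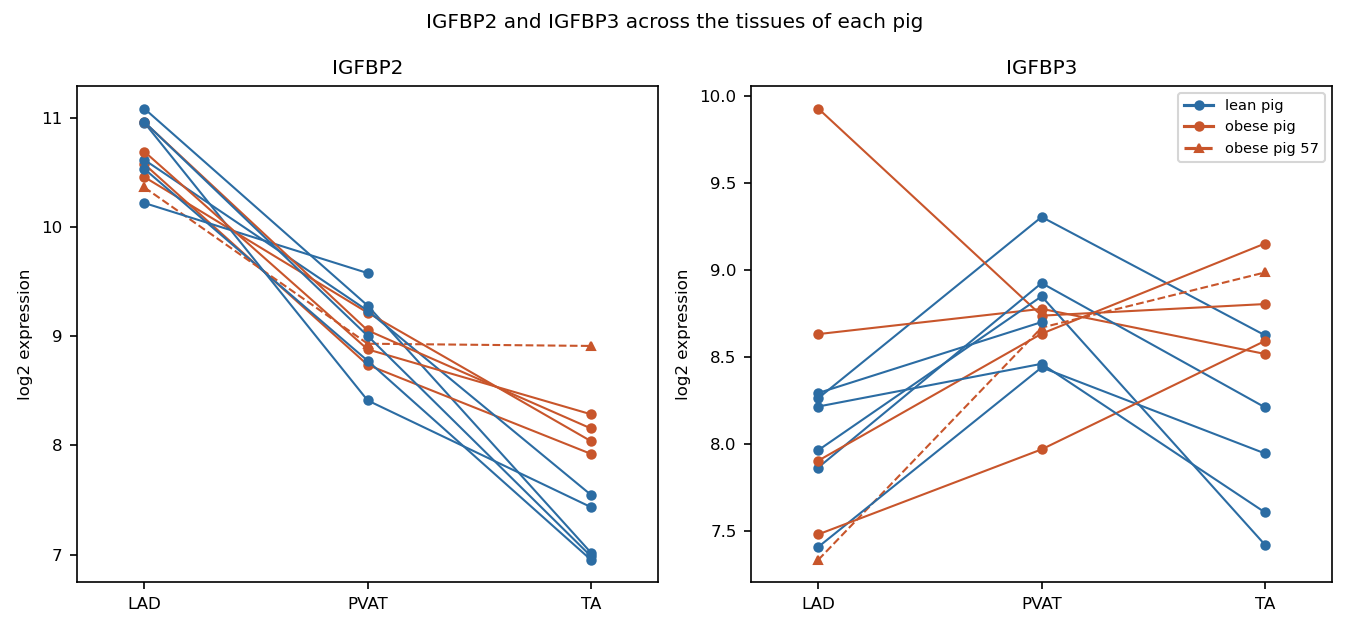
Log2 expression of IGFBP2 (left) and IGFBP3 (right) in the 3 tissues of each pig, with lines joining arrays of 1 pig, lean pigs in blue and obese pigs in orange (pig 57 dashed). For IGFBP2 the lines fall from LAD to TA in the 10 pigs that have both arrays, and in TA the 5 obese pigs (7.92 to 8.91) lie above the 5 lean pigs (6.95 to 7.55).

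IGFBP3 in TA averaged 7.96 ± 0.48 (SD) over the 5 lean pigs and 8.81 ± 0.26 over the 5 obese pigs. Of the obese arrays 3 of 5 lay above the highest lean array. The difference was 0.85 (SE 0.23, 95% confidence interval 0.34 to 1.35, limma adjusted p = 0.435) and did not pass in any of the alternatives run. Within dates it was 1.47, -0.11 and 0.95, so it did not hold on the date with 1 pig of each diet. Without pig 57 it was 0.80 (SE 0.24). In LAD it was 0.25 (95% confidence interval -0.62 to 1.13) with the high obese pig 55 included, and in PVAT -0.22 (-0.62 to 0.18). The test of PVAT against TA gave -1.07 (SE 0.44, limma adjusted p = 0.854).

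For IGF1 the diet differences of the 4 tested probe sets lay between -0.01 and 0.13 in LAD, between -0.28 and -0.07 in PVAT and between -0.47 and -0.03 in TA. On probe set 1 the 95% confidence intervals were -0.20 to 0.47 in LAD, -0.50 to 0.19 in PVAT and -0.89 to 0.66 in TA, so changes of the size of the tissue differences lay outside them. The TA value turned from -0.11 to 0.24 (SE 0.16) without the array of pig 57. IGFBP6 differed by -0.11, 0.03 and 0.11 in LAD, PVAT and TA, with 95% confidence intervals of -0.63 to 0.41, -0.49 to 0.55 and -0.60 to 0.82. IGFBP5 lay between -0.18 and 0.14 on its 2 probe sets over the 3 tissues. IGFBP7 lay between -0.09 and 0.06 in LAD and PVAT, and its TA differences of -0.42, -0.57 and -0.07 became 0.08, 0.09 and 0.25 without the array of pig 57. IGFBP1 differed by -0.05, -0.02 and -0.13. None of these passed with limma over all genes.

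The receptors and the rest of the pathway give the setting of these proteins. Of 48 other genes listed for the ligands and receptors, the growth hormone axis, the ternary complex, IGFBP proteases, signalling below the receptor and IGF2 mRNA-binding proteins, 32 were in the deposited table and 30, with 43 probe sets, were tested. No probe set of the list passed in a diet comparison or in a test of diet between tissues (limma). Between LAD and TA 9 of the 43 probe sets were higher and 7 lower in LAD, where 24.5% of all tested probe sets passed. Between PVAT and LAD 3 were higher and 21 lower in PVAT (background 56.6%, with 24.2% higher and 32.4% lower). Between PVAT and TA 9 were higher and 15 lower (background 59.7%, with 26.9% higher and 32.9% lower). The number passing in the comparisons of PVAT was thus near the share over all tested probe sets. The list's median differences were 0.10, -0.20 and -0.21, beside 0.01, -0.04 and -0.04 over all tested probe sets. In signalling below the receptor, 2 of 25 probe sets were higher and 12 lower in PVAT than in LAD, which is also near that background of 56.6%.

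**Figure D5:**
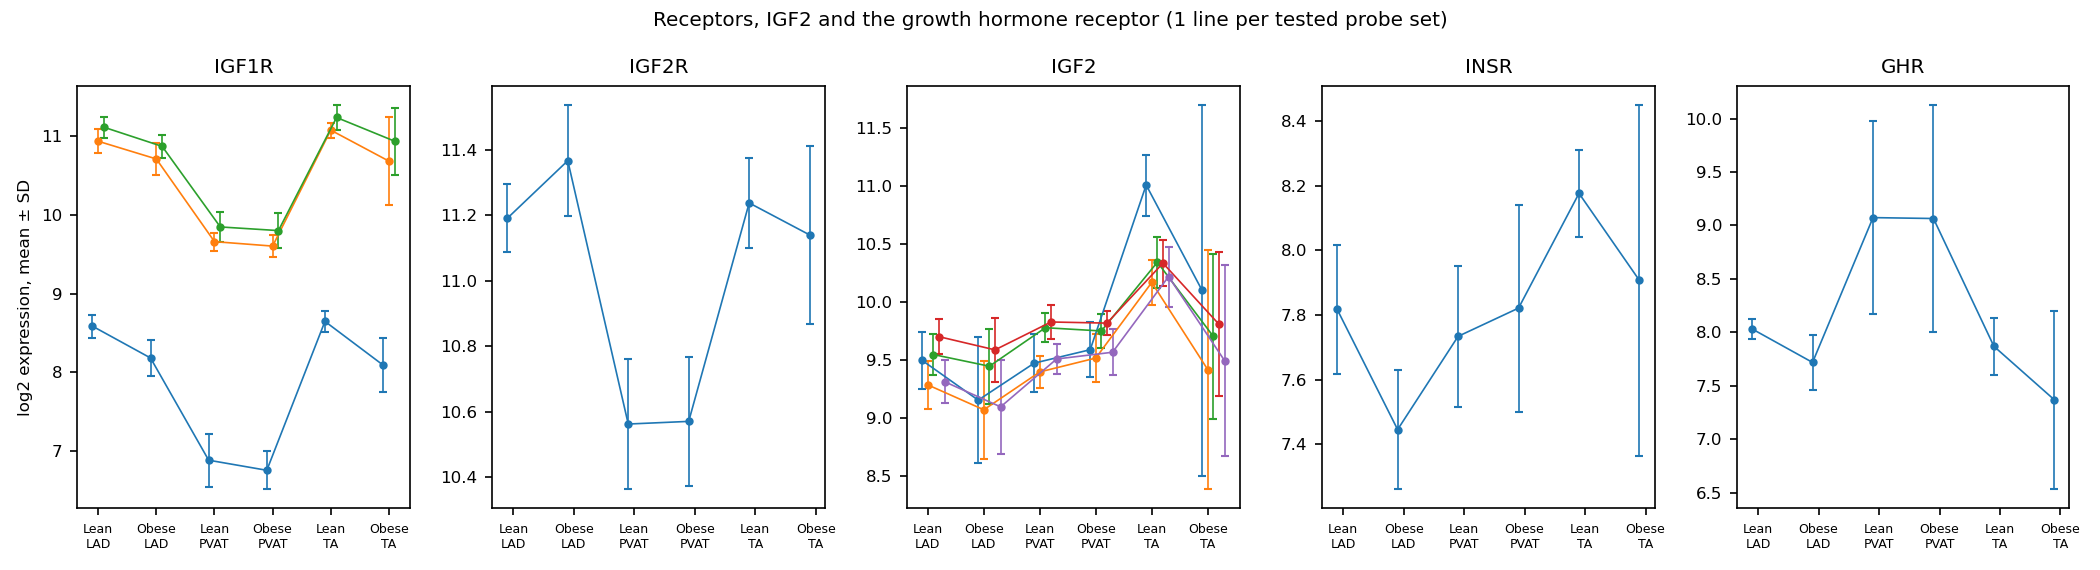
Group means of log2 expression with SD (n = 5 or 6) for IGF1R, IGF2R, IGF2, INSR and GHR, 1 line for each tested probe set (y axes differ, and the wide bars in obese TA include the array of pig 57). IGF1R and IGF2R are lower in PVAT than in both arteries, IGF2 is highest in lean TA, and GHR is higher and more variable in PVAT.

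IGF1R, the receptor through which IGF1 acts, was lower in PVAT, where IGF1 mRNA was highest. On the IGF1R probe set with the largest difference lean pigs averaged 8.59 ± 0.15 (SD, n = 6) in LAD, 8.65 ± 0.13 (n = 5) in TA and 6.89 ± 0.34 (n = 6) in PVAT, and obese pigs 8.18 ± 0.23, 8.09 ± 0.34 and 6.76 ± 0.24 (n = 5 each). PVAT lay between 6.25 and 7.22 and the arteries above 7.57 at the lowest, so they did not overlap. The 3 tested IGF1R probe sets differed between PVAT and LAD by -1.56 (SE 0.11), -1.19 (SE 0.11) and -1.17 (SE 0.10), and between PVAT and TA by -1.55, -1.25 and -1.26, with limma adjusted p of at most 4.09e-10. Without the array of pig 57 the latter were -1.61, -1.37 and -1.35. Between LAD and TA they differed by 0.01, -0.06 and -0.09 and did not pass, and without that array they were at -0.05, -0.18 and -0.18, of which the second passed (adjusted p = 0.04033). Between obese and lean pigs the 3 probe sets differed by -0.40, -0.22 and -0.24 in LAD and by -0.55, -0.39 and -0.30 in TA, none passing over all genes. These TA values include the array of pig 57 and are not given without it. The SD was 0.34, 0.56 and 0.43 in obese TA and 0.13, 0.09 and 0.16 in lean TA.

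IGF2R, the scavenger receptor that clears IGF2, was lower in PVAT by 0.71 (SE 0.08) than in LAD and by 0.62 (SE 0.08) than in TA, with limma adjusted p of 2.427e-08 and 2.408e-07, and it differed from TA by -0.67 without the array of pig 57. IGF2, the other ligand, had its highest level in TA. On the probe set of largest difference its lean means were 11.01 ± 0.26 (SD, n = 5) in TA, 9.50 ± 0.24 (n = 6) in LAD and 9.48 ± 0.25 (n = 6) in PVAT, and all 5 tested probe sets were lower in LAD than in TA, by -1.23 (SE 0.29) to -0.43 (SE 0.13), with adjusted p from 0.001885 to 0.0204. Without the array of pig 57, which read 7.35 against 11.44 for the highest obese TA array, the range was -1.57 to -0.56. PVAT was lower than TA on 1 of the 5 over all arrays, by 1.02 (SE 0.29), and on all 5 without that array, with differences of -1.37 to -0.38. IGF1 and IGF2 thus ranked the arteries oppositely, IGF1 higher in LAD and IGF2 higher in TA.

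GHR, the growth hormone receptor that induces IGF1, was higher in PVAT by 1.19 (SE 0.28, limma adjusted p = 0.0006246) than in LAD and by 1.45 (SE 0.28, adjusted p = 7.904e-05) than in TA, or by 1.27 (SE 0.26) without the array of pig 57. It varied in PVAT from 8.02 to 10.35 in lean and from 7.87 to 10.20 in obese pigs, while lean LAD ran from 7.92 to 8.19. INSR, the insulin receptor, was lower in LAD than in TA by 0.41 (SE 0.13, adjusted p = 0.01572), at -0.52 without that array, and differed by 0.15 (SE 0.12) between PVAT and LAD. Its difference between PVAT and TA was -0.26 (SE 0.13), and -0.38 (SE 0.10, adjusted p = 0.001361) without the array of pig 57. GRB10, an adaptor that restrains signalling from IGF1R and INSR, was higher in LAD by 0.71 (SE 0.11) and in PVAT by 0.92 (SE 0.11) than in TA, and by 0.63 and 0.84 without that array. TSC2, an inhibitor of mTOR signalling by the deposited symbol but PKD1 in the platform annotation, was lower in PVAT than in LAD by 1.33 (SE 0.21).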

How the data were processed

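RNA of 32 samples from 11 pigs was measured on Affymetrix porcine arrays. The deposited values are log2 expression per probe set, made with the affy package per the submitters' processing notes, and the version, background correction and normalization are not given in the sources used here. Each deposited probe set reaches 6.64, the log2 of 100, on at least 11 arrays, so weakly expressed transcripts were removed before deposition. No detection calls are given, and no fold is given where a compared group averages below 6.64. Array medians ran from 8.32 to 8.56. Precision is limited by how many arrays there are. Gene symbols are the deposited human symbols, beside the platform annotation. Neighbouring genes came from a pig annotation, and no genome position is printed since the files name no build.

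Probe sets below the 30% point of the mean (7.69) were left out. With R 4.3.3, limma 3.58.1 was fitted (two-sided, lmFit then eBayes) to the log2 values of all 10029 tested probe sets, within each tissue for diet and over 6 groups for tissue and for diet between tissues, with Benjamini-Hochberg adjustment over all of them and a threshold of 0.05. Tissue differences are means of the lean and the obese difference. The script was tested on simulated data. Same-numbered arrays come from 1 pig, and over 31 such pairs the correlation of deviations from the group means ran from -0.20 to 0.50 (limma's estimate for the pig block was 0.08).

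Alternatives were other filters, normalization, variance model, array weights, sacrifice date, 28S/18S ratio, the cardiomyocyte mean, the pig as a block and leaving out each replicate. Figures were drawn with matplotlib 3.10.9. The members and lists were chosen with earlier results of these data known. All members were named, of other pathway genes those with the 2 largest passing differences in a tissue comparison as well as IGF1R, IGF2R, IGF2, INSR and GHR, and for each member gene the 3 genes of most similar pattern, of which 1 is not reported here.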

Additional observations from a re-analysis of the deposited data

Results flagged for a closer look

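Of 90 groups (15 probe sets in 6 groups), 7 held a pig whose distance from the nearest other value was large against the group's range by Dixon's criterion, which chance meets in about 1 group of 20. The obese TA array of pig 57 accounted for 5 of them. It read 7.36 for IGF1 probe set 1, where the other obese TA arrays ran from 8.94 to 9.35, and 5.60 for IGF1 probe set 6. It read 11.56, 10.13 and 6.59 for IGFBP7 probe sets 1, 2 and 3. On the same array the mean of KRT8, KRT18 and KRT19 was 10.17, against at most 6.62 in lean TA. These keratins are the 3 measured of 8 listed mesothelial markers. MSLN, UPK3B, WT1, CALB2 and LRRN4 were not measured, so the cell type is not settled. The part of other cells in these values was not tested. The obese PVAT array of pig 85 read 7.97 for IGFBP3, below the other obese PVAT arrays at 8.63 to 8.78. The obese LAD array of pig 55 read 10.88 for IGFBP5 probe set 1, below the others at 11.49 to 11.71.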

How the results depend on the processing

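The direction of every tested member that passed in a tissue comparison was kept in all alternatives run. The count of members passing for diet in TA rose from 0 to 1, which was IGFBP2, with array weights (1), the 28S/18S ratio as a covariate (1), all 6 groups in 1 fit (1) and the replicate block of pigs as a random term (1), and it was 0 to 1 when each array was left out in turn. With the lowest 50% of probe sets left out fewer members were tested, and the counts fell from 12 to 7 for PVAT against LAD and from 11 to 7 for PVAT against TA. Leaving out each pig gave 11 to 12 and 10 to 11 for those, and 6 to 6 for LAD against TA. All counts for diet in LAD and PVAT and for diet between tissues stayed at 0. Apart from the calls of IGFBP2, IGFBP3 and IGFBP7 given above, the pig block changed no member's call. Leaving out the TA array of pig 57 in the fit of all groups was added after seeing the data. The arrays carry no measure of signal over background, so weak probe sets (IGFBP1, IGF1 probe sets 5 and 6) have no known detection.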

Other observations

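Genes whose group means followed those of a member were ranked over the 6 groups by the root mean square distance after centring, as a description. For IGF1 they were NID1 (0.13), OAF (0.14) and PGAM2 (0.16), for IGFBP2 FARP1 (0.25), THBS1 (0.28) and ITIH4 (0.29), and for IGFBP6 EGFL8 (0.15), IGF1 itself (0.17) and ITGB8 (0.17). For IGFBP3 they were EIF4EBP1 (0.07), ACSL5 (0.13) and SLC25A39 (0.14), for IGFBP5 PRKD3 (0.03; PRKD3 and NDUFAF7 in the platform annotation), OSBPL1A (0.04) and TMCC1 (0.05), and for IGFBP7 AKAP13 (0.03), PCSK1N (0.04) and ITGAV (0.06). For IGFBP1, which was nearly flat, they were PCNT (0.014), NUDT9 (0.0155) and DDX20 (0.0171).

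Over the 32 arrays, after group means were removed, the genes with the highest Pearson r were FBXL7 (0.89), NFIB (0.88) and COX8A (0.88) for IGF1, DLG3 (0.70), ALDH18A1 (0.68) and FARP1 (0.65) for IGFBP2, and ANPEP (0.74), CLCN7 (0.73) and PLA2G15 (0.72) for IGFBP3. Without the TA array of pig 57 these r were 0.73, 0.69 and 0.72 for IGF1, 0.62, 0.57 and 0.53 for IGFBP2, and 0.735, 0.75 and 0.73 for IGFBP3. They included C19orf42 (0.65; SMIM7 in the platform annotation) and SDPR (0.63; CAVIN2) for IGFBP5, and were PCOLCE (0.78), PDPN (0.72) and C13orf33 (0.72; MEDAG) for IGFBP6. For IGFBP7 FBLN5 (0.98), PMEPA1 (0.97) and MFAP4 (0.97) led, and without the TA array of pig 57 their r were 0.56, 0.58 and 0.49, so the values of all 32 arrays rested largely on that array. Without it r was 0.67 for C19orf42 and 0.70 for SDPR with IGFBP5, and 0.82, 0.75 and 0.74 for the IGFBP6 genes in the order given. For IGFBP1 they were CIRBP (0.59), CSDC2 (0.58) and GGA3 (0.58), and 0.58, 0.58 and 0.56 without it. When genes were ranked anew without the TA array of pig 57, the leading genes for IGFBP2 were DACT3 (0.71), KIAA1671 (0.71) and KCNMB1 (0.67). For IGFBP7 they were ATXN7L3B (0.84; MAGED1 in the platform annotation), ERLEC1 (0.81) and TCEAL8 (0.80). None of these led over the 32 arrays, and the leading genes of the other members changed in part. The arrays share pigs, and no test was made of these r.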
